A study of Homo sapiens with 12 samples.

Results

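The comparison described here set MDA-MB-231 cells transfected with the ARF1 siRNA set named ARF-2 against MDA-MB-231 cells transfected with a scramble siRNA. The arrays were chosen by their source names: 3 arrays of the ARF-2 set and 3 scramble arrays, 6 of the 12 arrays in the series. MDA-MB-231 is an established line of human breast cancer cells that lacks hormone receptors and looks mesenchymal, and the groups differed by no label other than the siRNA. Per the labels, ARF-2 cells received an ARF1 SMARTpool (a mixture of several siRNAs against the same transcript) and scramble cells a non-silencing control, each at a final 100 nM with the lipid carrier Oligofectamine. The other 6 arrays carry the same ARF1 siRNA label under the source names ARF-1 and ARF-4, with 3 arrays each. The hyphen tells these sets from the genes ARF1 and ARF4. Neither the meaning of the set numbers nor the time between transfection and harvest is given by the labels. Nothing in them states that replicates came from separate cultures, so p-values measure only the spread among these samples, which may be technical.

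ARF1 is a small GTPase of the Golgi. In its GTP-bound form it recruits the COPI vesicle coat and other effectors to Golgi membranes and so serves transport between the Golgi and the endoplasmic reticulum (ER). An siRNA is taken up by an Argonaute protein and directs cleavage of the transcript it matches, so the targeted transcript checks the treatment. The question of the series was what ARF1 does in epithelial-mesenchymal transition (EMT). In EMT, epithelial cells detach and become motile under transcription factors of the SNAI, ZEB and TWIST families.

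Each array was an Illumina HumanHT-12 V4.0 beadchip. Values are log2 normalized signals, and a difference is ARF-2 minus scramble on that scale, with its standard error (SE) after the ± sign and 3 arrays in each group. Mean raw signal was 303, 439 and 492 on the ARF-2 arrays, against 503, 371 and 423 on the scramble arrays. Of 47311 probes, each array detected 39.1% to 42.8%. Across probes, the correlation was 0.991 to 0.992 among ARF-2 arrays and 0.980 to 0.982 of ARF-2 with scramble arrays. All 7 markers fixed for MDA-MB-231 (VIM, CD44, CAV1, EGFR, MSN, ANXA1 and AXL) were detected on all 6 arrays, while ESR1, PGR, CDH1, KRT5 and KRT14 were detected on none. The summed linear signal of the 7 markers was lower on the ARF-2 arrays, at 42661 to 43913, against 48309 to 49936 on the scramble arrays. ERBB2, listed as low or absent, was detected on all 6. Of markers of other cell types, 22 luminal breast genes had a summed linear signal of 17387 to 17860 on the ARF-2 arrays, against 14445 to 16513 on the scramble arrays. In each group 18 of the 22 were detected on at least 1 array, KRT8, KRT19, XBP1, AGR2 and SPDEF among them on all 6, while ESR1, PGR and FOXA1 were detected on none. Endothelial, adipocyte and fibroblast markers (18 genes) summed to 739 to 840, against 619 to 662 in scramble, and leukocyte markers (21 genes) to 2665 to 3113, against 2624 to 2788. In the first of these lists 6 of 18 genes were detected on at least 1 ARF-2 array and 6 on at least 1 scramble array, PECAM1 and LEP on all 6, while VWF and CDH5 were detected on none. In the leukocyte list it was 6 of 21 on ARF-2 arrays and 7 on scramble arrays, with CD14, CD68, CSF1R and FCGR3A on all 6 and PTPRC and CD3E on none. PECAM1 and CD14 were higher in ARF-2 cells, by 0.70 and 1.01, and PECAM1 lost that call under median scaling (adjusted p = 0.0663). A second CD14 probe read 0.34 and did not pass (adjusted p = 0.0811). The part of these markers in the results was not tested.

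The targeted transcript was not lower in ARF-2 cells by any of its 3 probes past the threshold. The ARF1 probe with the highest mean signal (ILMN_1802203) read 11.87, 11.87 and 11.83 in ARF-2, against 11.59, 11.71 and 11.63 in scramble. The ARF-2 values were the higher ones and the groups did not overlap. The difference was 0.21 ± 0.08 (limma with Benjamini-Hochberg adjustment, adjusted p = 0.0758), with a 95% confidence interval from 0.03 to 0.40, and read 0.05 under median scaling (adjusted p = 0.91). Over the 20 splits of 3 against 3 arrays, the exact permutation test (two-sided) gave p = 0.1, the smallest it can give. The probe ILMN_2330948 differed by 0.15 ± 0.12 (adjusted p = 0.384; exact permutation p = 0.3) and ILMN_1661458 by -0.23 ± 0.16 (adjusted p = 0.340; exact permutation p = 0.4). No probe thus showed the fall that the label implies, and the groups keep their label names for this reason. None of the other ARF genes passed. The differences were -0.30 for ARF3, 0.12 for ARF4, 0.20 for ARF5 and 0.00 for ARF6, with adjusted p = 0.169, 0.403, 0.148 and 0.992 in that order.

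Expression differed widely between ARF-2 and scramble cells, in both directions. Of 12048 genes tested, 3477 (28.9%) passed an adjusted p of 0.05, 1773 higher (14.7%) and 1704 lower (14.1%) in ARF-2 cells. In 5545 genes (46%) the 3 ARF-2 arrays lay all above or all below the 3 scramble arrays. Most differences were small: 279 genes (2.32%) passed the test at 2-fold or more, 186 higher (1.54%) and 93 lower (0.772%). Over all 22195 probes tested, including those without a gene symbol, 5452 (24.6%) passed, 2718 higher (12.2%) and 2734 lower (12.3%), and 2300 (10.4%) did so at 1.5-fold or more. The split depended on the scaling. Quantile normalization left the median of all genes at 0, whereas median scaling put it at -0.11, and 926 probes were then called higher and 2254 lower (29.1% higher, against 49.9%). Differences below are on the quantile scale. For named genes, a call against scramble that median scaling ended is given as such beside the gene. Single microRNA genes, and single genes in the comparisons with ARF-1 and ARF-4, were not followed under median scaling. The shares over all genes, 14.7% higher and 14.1% lower, are the background for the gene list counts below.

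**Figure D1:**
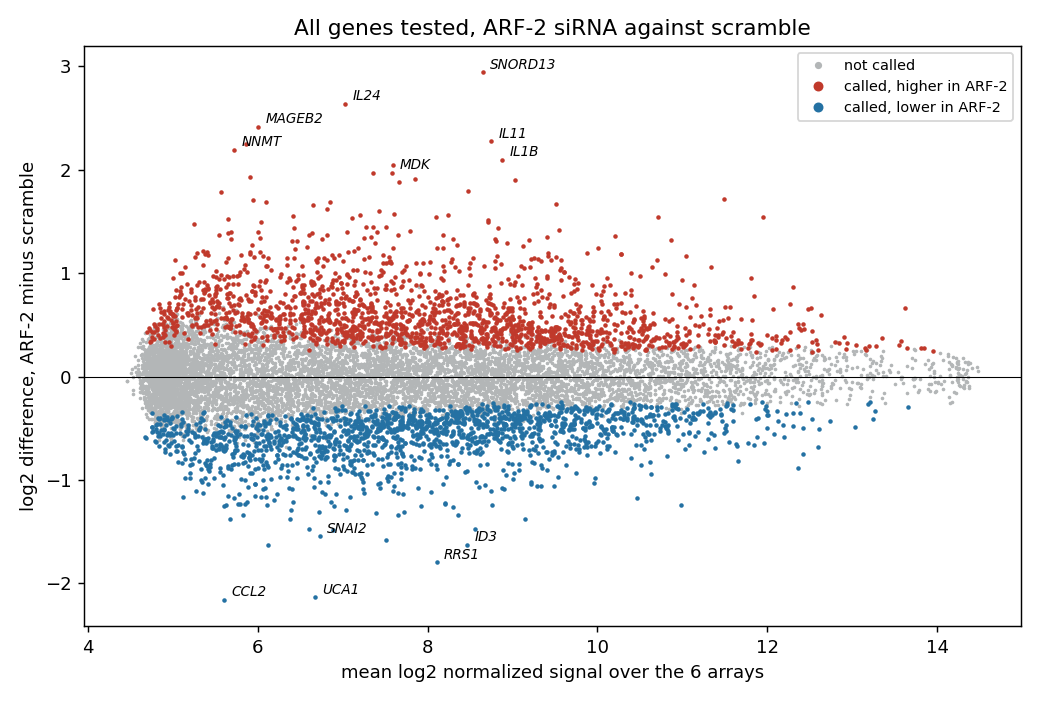
Each point is 1 of 12048 genes, with its mean log2 normalized signal over the 6 arrays on the x axis and the log2 difference, ARF-2 minus scramble, on the y axis. Coloured points passed the adjusted p of 0.05 (1773 higher in red, 1704 lower in blue), and the named genes are among the largest differences in each direction.

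Secreted cytokines made up 4 of the 15 largest rises, and the chemokine CCL2 was among the 15 largest falls. IL24, of the interleukin-10 family, read 8.36, 8.42 and 8.27 in ARF-2, against 5.59, 5.94 and 5.61 in scramble. It was high on every ARF-2 array. Its difference of 2.64 ± 0.11 (6.22-fold; adjusted p = 6.54e-08) was matched in direction by a dimmer probe, at 1.37 ± 0.23 (adjusted p = 0.00103). IL11, an interleukin-6 family cytokine that signals through gp130, read 9.84, 10.00 and 9.81 in ARF-2, against 7.46, 7.77 and 7.60 in scramble. The groups were far apart, by 2.27 ± 0.11 (4.84-fold; adjusted p = 1.34e-07). The proinflammatory interleukin-1 pair rose as well. IL1B read 9.92, 9.98 and 9.89 in ARF-2, against 7.89, 7.86 and 7.75 in scramble. The 3 ARF-2 arrays lay close together and far above scramble, a difference of 2.10 ± 0.08 (adjusted p = 4.49e-08). IL1A read 9.32, 9.49 and 9.32 in ARF-2, against 7.59, 7.66 and 7.49 in scramble, again without overlap, a difference of 1.80 ± 0.15 (adjusted p = 7.26e-06). The neutrophil attractant CXCL8 read 12.74, 12.68 and 12.76 in ARF-2, against 10.98, 11.29 and 11.27 in scramble. Its groups did not overlap either, and it rose by 1.55 ± 0.11 (adjusted p = 2.16e-06).

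CCL2, which attracts monocytes, read 4.42, 4.69 and 4.45 in ARF-2, against 6.66, 6.83 and 6.56 in scramble. It was detected on 0 ARF-2 arrays and on all 3 scramble arrays, so the fold is a bound set by the detection limit of the ARF-2 arrays: CCL2 was at least 3.31-fold lower (adjusted p = 4.21e-07). The list of NF-kB and cytokine genes holds the inducible cytokines, their NF-kB subunits and inhibitors. Of 38 tested members, 14 rose (36.8%, against 14.7% over all genes), 8 fell (21.1%, against 14.1%) and 16 did not pass. The list median was 0.10 (range -2.16 to 2.64). This is a list of unlike parts, since the cytokines IL24, IL11, IL1B, IL1A and CXCL8 rose while CCL2 fell. PTGS2, the inducible cyclooxygenase of prostaglandin synthesis, belonged to the risers, at 9.34, 9.50 and 9.35 in ARF-2, against 8.18, 8.18 and 8.32 in scramble, a difference of 1.17 ± 0.09 (adjusted p = 7.26e-06). Of 47 interferon-stimulated genes, 13 rose and 8 fell (27.7% and 17%; median 0.18), and under median scaling 4 rose and 5 fell. GBP2, an interferon-induced GTPase, read 10.04, 9.89 and 10.00 in ARF-2, against 8.07, 8.05 and 8.12 in scramble. The groups did not overlap, and this difference of 1.90 ± 0.08 (3.73-fold; adjusted p = 1.34e-07) was the widest of the list. The antiviral GTPase MX1 rose by 0.98 ± 0.11 and the exonuclease ISG20 by 0.89 ± 0.10, while HERC6 fell by 0.79 ± 0.11 (adjusted p = 6.09e-05, 7.91e-05 and 0.000222). The antigen-presentation list had few calls, with 0 rises and 1 fall (5.26%) among 19 genes. The fall was the peptide transporter subunit TAP2 (-0.93 ± 0.12; adjusted p = 0.00015), although its other probe read -0.14 (adjusted p = 0.617).

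**Figure D2:**
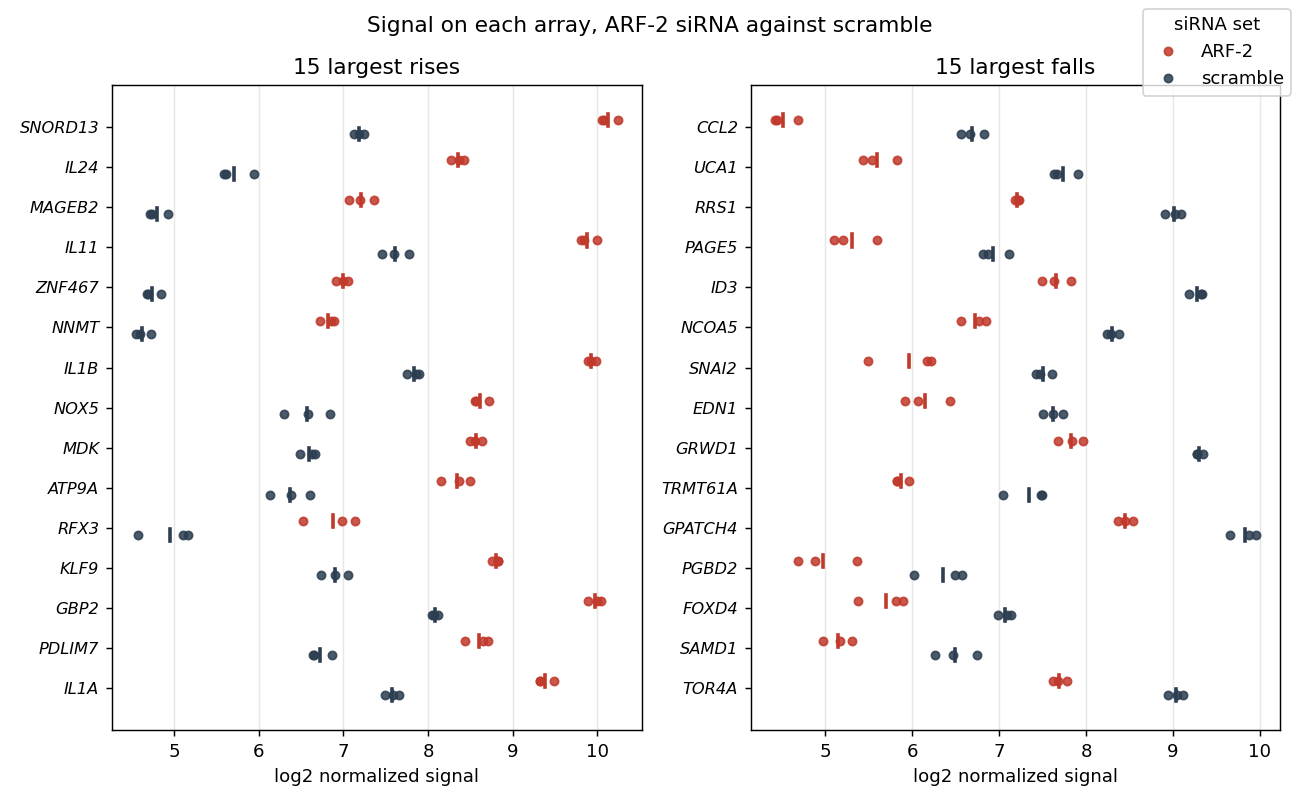
Log2 normalized signal (x axis) of the 15 largest rises (left) and 15 largest falls (right) on each of the 3 ARF-2 arrays (red) and 3 scramble arrays (dark), with points for arrays and short bars for group means. In every row the 2 groups do not overlap, as the rule for naming required, and SNORD13 at the top left shows the widest gap, 2.94.

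Most genes of ribosome biogenesis fell in ARF-2 cells, and none rose. Ribosome assembly begins in the nucleolus, where RNA polymerase I makes the rRNA precursor and a large set of processing and assembly factors, guided by small nucleolar RNAs, cut, modify and fold it. Of 51 tested members of this list, 35 fell (68.6%, against 14.1% over all genes), 0 rose and 16 did not pass, and 49 had a difference below 0, as did 6018 of all 12048 genes. The median was -0.58, against 0 over all genes, and the range ran from -1.80 to 0.09. Under median scaling and under cyclic loess 35 members also fell, and the falls numbered 32 to 35 when each of the 6 arrays was left out. The list was written with earlier results of these arrays known, so its count is a description.

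RRS1, an assembly factor of the large subunit, showed the widest difference of the list. Its values were 7.18, 7.22 and 7.23 in ARF-2, against 9.02, 8.91 and 9.09 in scramble. All ARF-2 arrays lay close together and far below scramble, with a difference of -1.80 ± 0.09 (3.47-fold lower; adjusted p = 3.34e-07). GRWD1, a WD-repeat protein of large-subunit assembly and histone binding, read 7.96, 7.84 and 7.68 in ARF-2, against 9.34, 9.28 and 9.28 in scramble, a difference of -1.47 ± 0.10 (adjusted p = 1.83e-06). URB2 read 6.97, 6.98 and 6.99 in ARF-2, against 8.26, 8.28 and 8.41 in scramble, with the ARF-2 arrays nearly equal (-1.34 ± 0.09; adjusted p = 2.37e-06). The RNA helicase DDX21, which acts in rRNA transcription and processing, read 10.44, 10.26 and 10.40 in ARF-2, against 11.65, 11.61 and 11.56 in scramble. The groups did not overlap, and it fell by 1.24 ± 0.10 (adjusted p = 7.26e-06). PNO1, needed for maturation of the small subunit, read 6.92, 6.86 and 6.92 in ARF-2, against 7.92, 7.92 and 7.97 in scramble, and fell by 1.04 ± 0.09 (adjusted p = 1.42e-05). Nucleolin (NCL), a major nucleolar protein, read 11.71, 11.68 and 11.85 in ARF-2, against 12.26, 12.27 and 12.21 in scramble, a narrower gap (-0.50 ± 0.08; adjusted p = 0.000978).

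Outside that list, GPATCH4 and TRMT61A were among the 15 largest falls. GPATCH4, a nucleolar G-patch protein, read 8.45, 8.54 and 8.37 in ARF-2, against 9.96, 9.66 and 9.88 in scramble (-1.38 ± 0.11; adjusted p = 5.29e-06). TRMT61A, the catalytic subunit of a tRNA methyltransferase, read 5.96, 5.83 and 5.82 in ARF-2, against 7.49, 7.48 and 7.05 in scramble, where scramble replicate 3 was the low one and still stood above the ARF-2 arrays (-1.47 ± 0.14; adjusted p = 1.76e-05). RPPH1, the RNA component of ribonuclease P, read 8.36, 8.23 and 8.14 in ARF-2, against 9.01, 8.99 and 8.98 in scramble, a difference of -0.75 ± 0.10 (adjusted p = 0.000276). The widest rise of all genes was also a nucleolar RNA. SNORD13, which guides acetylation of small-subunit rRNA, read 10.24, 10.05 and 10.08 in ARF-2, against 7.13, 7.18 and 7.24 in scramble. That is a difference of 2.94 ± 0.09 (7.69-fold; adjusted p = 4.72e-09) with no array near the other group. Among 19 tested small nucleolar and structural RNAs, 3 rose and 4 fell (15.8% and 21.1%, against 14.7% and 14.1% over all genes; median 0.07). Besides SNORD13, RN7SK, an RNA that holds back transcription elongation, rose by 0.78 ± 0.08, and SNORD16 fell by 1.02 ± 0.11. A second RN7SK probe read 0.28 (adjusted p = 0.193). Cytosolic ribosomal proteins, the products that assembly factors put together, had few calls, with 1 rise and 5 falls among 57 genes (1.75% and 8.77%). Their median was -0.03, and 0.01 under cyclic loess, and RPL29 (-0.65 ± 0.09) was the widest.

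**Figure D3:**
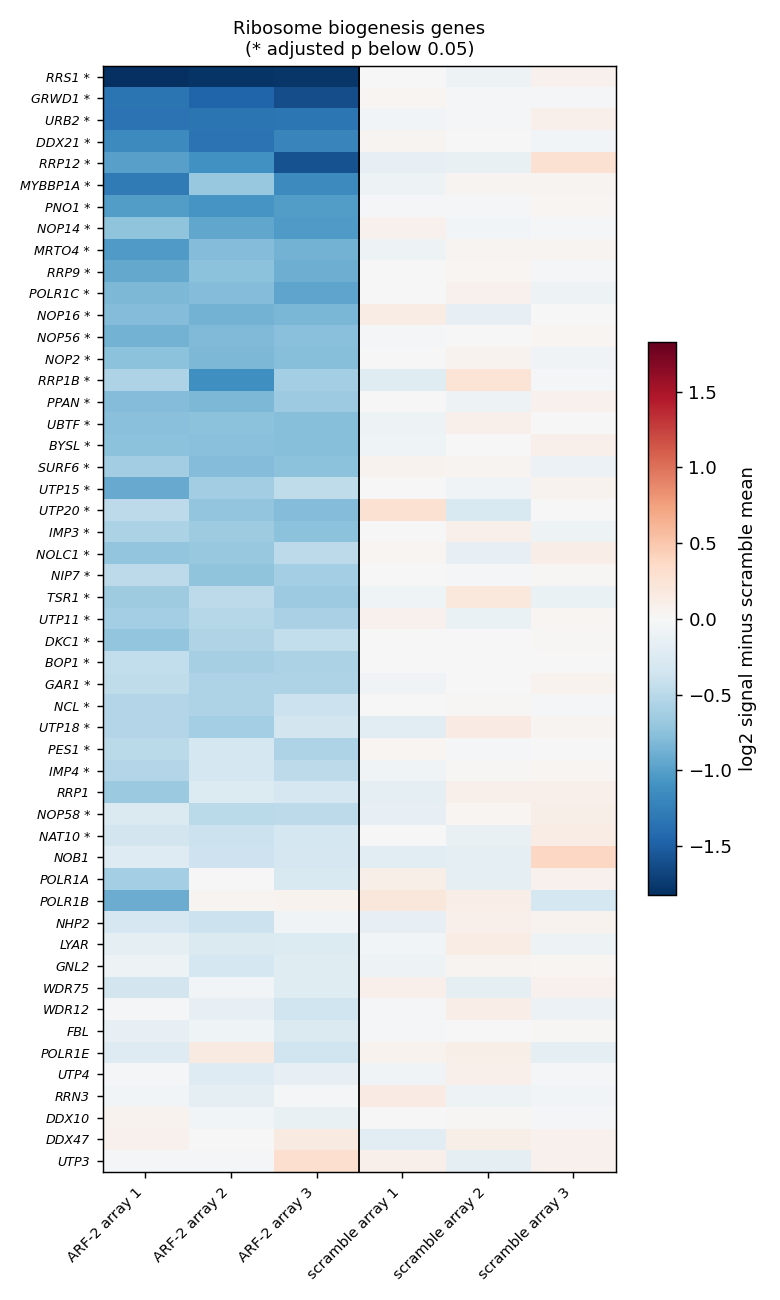
Heat map of 51 ribosome biogenesis genes (rows, ordered by difference) on the 3 ARF-2 arrays and 3 scramble arrays (columns), coloured by log2 normalized signal minus the gene's scramble mean. A star marks an adjusted p below 0.05, and the 35 starred genes are lower on the ARF-2 arrays.

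The promoters of the falling genes were read for an E-box, CACGTG, the site that MYC family proteins and other helix-loop-helix factors bind. This search was added after the values were seen. RefSeq windows on GRCh38.p14, from 250 bases before to 50 bases after the gene start, matched 28 of the 35 genes that fell, and 13 of them (46.4%) held CACGTG, a palindrome, so that both strands read alike. It was in 3 of 15 windows (20%) of members that did not pass, in 10.1% of the windows of all genes tested that have one (975 of 9623) and in 7.43% of all 27305 windows. A match describes letters, not binding. The window of PNO1 is shown as that of a member described above that holds the motif. It lies on the + strand at chr2:68157638-68157937, with the E-box in capitals, starting at position 10 from the gene start.
PNO1: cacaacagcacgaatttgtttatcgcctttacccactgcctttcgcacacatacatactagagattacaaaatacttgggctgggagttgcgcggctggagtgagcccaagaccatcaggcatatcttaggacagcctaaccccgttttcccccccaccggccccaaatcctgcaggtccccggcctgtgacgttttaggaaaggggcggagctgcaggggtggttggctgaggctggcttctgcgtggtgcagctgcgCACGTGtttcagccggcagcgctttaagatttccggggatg

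Falls outnumbered rises in both lists that cover proliferation. Of 48 genes of G2 and mitosis, 19 fell and 2 rose (39.6% and 4.17%; median -0.25), and of 43 E2F targets and DNA replication genes, 19 fell and 1 rose (44.2% and 2.33%; median -0.23). Over all genes 14.1% fell and 14.7% rose. Under median scaling 15 fell and 0 rose in each. In bulk RNA, fewer cells in a phase and less of the transcript per cell cannot be told apart. CDC25A, the phosphatase that activates cyclin-dependent kinases at S phase entry, read 7.78, 7.52 and 7.68 in ARF-2, against 8.91, 8.96 and 8.91 in scramble. This was the widest difference of the mitotic list (-1.26 ± 0.10; adjusted p = 5.16e-06). CDC20, an activator of the anaphase-promoting complex, read 12.05, 12.03 and 12.08 in ARF-2, against 12.79, 12.83 and 12.78 in scramble, and every ARF-2 value lay below every scramble value (-0.75 ± 0.08; adjusted p = 4.87e-05). CDCA8, a subunit of the chromosomal passenger complex, fell by 0.89 ± 0.13, its partner survivin (BIRC5) fell by 0.67 ± 0.10 and the proliferation marker MKI67 fell by 0.86 ± 0.12 (adjusted p = 0.000353, 0.000523 and 0.000384). Among replication genes, CLSPN, which links stalled forks to checkpoint kinases, fell by 0.88 ± 0.13 and was detected on 2 of 3 ARF-2 arrays and on all scramble arrays. CDT1, which loads the replicative helicase, fell by 0.84 ± 0.12, MCM10 fell by 0.69 ± 0.09, and RRM2, a ribonucleotide reductase subunit, fell by 0.65 ± 0.10 (adjusted p = 0.000382, 0.000238 and 0.000513).

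Regulators of G1 moved both ways, with 8 rises and 5 falls among 25 genes (32% and 20%, against 14.7% and 14.1% over all genes). The median was 0.08, and -0.05 under median scaling, with 3 rises and 4 falls. Leaving out each array gave 4 to 6 rises, the lowest without scramble replicate 2. Cyclin D1 (CCND1) read 11.77, 12.03 and 11.96 in ARF-2, against 12.88, 12.83 and 12.72 in scramble. Every ARF-2 value was the lower one, and it fell by 0.89 ± 0.10 (adjusted p = 6.46e-05). The retinoblastoma relatives parted: RBL1 fell by 0.71 ± 0.11 and RBL2 rose by 0.88 ± 0.10 (adjusted p = 0.000547 and 6.09e-05). The kinase inhibitor CDKN1C rose by 0.82 ± 0.13 (adjusted p = 0.000723) and was detected on 3 ARF-2 arrays and 1 scramble array. CCNG2, a cyclin that is high in arrested cells, read 7.82, 7.98 and 7.96 in ARF-2, against 6.55, 6.39 and 6.81 in scramble, a difference of 1.34 ± 0.13 (adjusted p = 2.85e-05). KLF9, a zinc-finger factor, read 8.75, 8.83 and 8.83 in ARF-2, against 7.05, 6.90 and 6.74 in scramble. It was among the largest rises, at 1.91 ± 0.10 (adjusted p = 2.93e-07). Of 16 p53 targets, 2 rose and 3 fell (12.5% and 18.8%), and of 30 apoptosis regulators, 6 rose and 4 fell (20% and 13.3%), shares near the 14.7% and 14.1% over all genes. Under median scaling 0 and 3 of the p53 targets and 1 and 4 of the apoptosis regulators passed, and leaving out each array gave 0 to 1 rises of p53 targets and 2 to 6 rises and 1 to 3 falls of apoptosis regulators. CASP8, the initiator caspase of death receptors, was undetected on all scramble arrays and was at least 1.60-fold higher in ARF-2 cells (adjusted p = 0.000922).

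The cell cycle element TTTGAA, through which late cell cycle promoters are repressed in resting cells, was looked for on both strands of the same windows. It was in 10 of the 14 windows (71.4%) of mitotic genes that fell, in 16 of 24 (66.7%) of those that did not pass, in 10.3% of the windows of all genes tested and in 15.4% of all 27305 windows. The shares were thus close for mitotic genes that fell and for those that did not pass. CDCA8 and MKI67 are shown as members named above that hold it, with the element in capitals on either strand. The CDCA8 window is on the + strand at chr1:37692266-37692565 and that of MKI67 on the - strand at chr10:128126374-128126673.
CDCA8: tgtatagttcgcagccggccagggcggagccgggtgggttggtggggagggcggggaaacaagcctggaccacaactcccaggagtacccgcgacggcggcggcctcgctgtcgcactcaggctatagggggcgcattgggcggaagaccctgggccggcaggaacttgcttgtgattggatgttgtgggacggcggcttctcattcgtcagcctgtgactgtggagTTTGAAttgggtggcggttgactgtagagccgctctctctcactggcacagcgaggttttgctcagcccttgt
MKI67: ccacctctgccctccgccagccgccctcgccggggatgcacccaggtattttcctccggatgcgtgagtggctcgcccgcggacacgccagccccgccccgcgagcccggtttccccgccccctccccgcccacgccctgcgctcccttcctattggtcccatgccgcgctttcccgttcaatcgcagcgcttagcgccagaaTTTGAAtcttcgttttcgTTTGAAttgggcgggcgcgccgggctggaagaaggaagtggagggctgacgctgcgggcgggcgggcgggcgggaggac

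EMT transcription factors bear on the question of the series. In the list of these factors and cadherins, 9 of 18 genes were tested. Of these, 5 fell (55.6%, against 14.1% over all genes) and 0 rose (median -0.41), and 3 fell under median scaling. With each array left out, falls numbered 4 without ARF-2 replicate 2 or 3 and 3 without any 1 of the others. SNAI2 (Slug) read 5.49, 6.17 and 6.22 in ARF-2, against 7.42, 7.61 and 7.47 in scramble. ARF-2 replicate 1 was the lowest and the groups did not overlap, with a difference of -1.54 ± 0.19 (2.91-fold lower; adjusted p = 0.000147). A dimmer SNAI2 probe read 6.00, 5.62 and 5.88 in ARF-2, against 6.64, 6.74 and 6.37 in scramble (-0.75 ± 0.17; adjusted p = 0.00712). FOXQ1, a forkhead factor, fell by 1.02 ± 0.10 (adjusted p = 2.46e-05), and ZEB2 fell by 0.51 ± 0.14 (adjusted p = 0.0213; 0.0828 under median scaling). ZEB2 passed in 11 of the 18 alternatives that gave it a value, and missed the threshold without ARF-2 replicate 1 (adjusted p = 0.0851) and without scramble replicate 1, 2 or 3 (0.0559, 0.0552 and 0.0521). ZEB1 read 5.83, 5.41 and 5.56 in ARF-2, against 6.32, 5.75 and 5.97 in scramble, with overlapping groups (-0.41 ± 0.19; adjusted p = 0.14). No test was made of SNAI1, TWIST1 and CDH1, which 0 of the 12 arrays detected, or of CDH2, which 1 array detected, and FN1 was undetected in both groups. Vimentin (VIM), the mesenchymal filament protein, read 14.14, 14.09 and 14.16 in ARF-2, against 14.23, 14.33 and 14.28 in scramble, and did not pass (-0.15 ± 0.09; adjusted p = 0.258).

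Structural genes of the epithelial and mesenchymal states did not follow a single direction. Of 22 epithelial genes, 3 rose and 7 fell (13.6% and 31.8%, against 14.7% and 14.1% over all genes). The median was 0.01, and -0.12 under median scaling. The tight junction protein CLDN7 rose by 1.10 ± 0.18 and the adhesion molecule EPCAM by 0.54 ± 0.10, while the desmosomal PKP2 fell by 0.92 ± 0.14, keratin 7 (KRT7) fell by 0.83 ± 0.15 and MAL2 fell by 0.57 ± 0.10. The call of EPCAM was lost under median scaling (adjusted p = 0.248), and its 2 other probes did not pass (adjusted p = 0.304 and 0.139). Of 26 mesenchymal genes, 10 rose and 3 fell (38.5% and 11.5%), with a median of 0.06. Under median scaling 5 rose and 3 fell, with the median at -0.07. Cadherin 11 (CDH11) fell by 0.74 ± 0.09. The widest rise of this list, NNMT, is given with the NAD enzymes. Contractile proteins were also among the risers. TAGLN (transgelin) read 7.53, 7.65 and 7.47 in ARF-2, against 6.62, 5.99 and 6.50 in scramble, a difference of 1.18 ± 0.15 (adjusted p = 0.000138), and smooth muscle actin (ACTA2) rose by 1.15 ± 0.12 (adjusted p = 5.45e-05).

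Actin and LIM-domain proteins counted 12 rises and 4 falls among 33 genes (36.4% and 12.1%, against 14.7% and 14.1% over all genes). Their median was 0.09, and under median scaling 5 rose and 3 fell. PDLIM7 (Enigma), which ties signalling proteins to actin filaments, read 8.65, 8.44 and 8.71 in ARF-2, against 6.64, 6.65 and 6.87 in scramble. The arrays were far apart, by 1.88 ± 0.10 (3.68-fold; adjusted p = 3.34e-07), although its 2 dimmer probes read 0.24 and 0.13 (adjusted p = 0.367 and 0.613). MYH10, a non-muscle myosin, rose by 1.21 ± 0.14 and tropomyosin TPM2 by 0.95 ± 0.09. Among 34 integrin and focal adhesion genes, 8 rose and 3 fell (23.5% and 8.82%), and 1 and 3 under median scaling. In this list ITGA1 rose by 1.21 ± 0.20 (adjusted p = 0.000974). Matrix proteases and their inhibitors counted 7 rises and 6 falls among 26 (26.9% and 23.1%), and 2 and 6 under median scaling. The protease PRSS3 (mesotrypsin) fell by 1.22 ± 0.12, ADAMTS1 fell by 1.24 ± 0.18 and the collagenase MMP1 fell by 0.84 ± 0.14, whereas ADAM19 rose by 0.79 ± 0.10. ADAMTS1 was detected on 1 of 3 ARF-2 arrays.

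Of 31 BMP and TGF-beta genes, 5 fell (16.1%, near the 14.1% over all genes) and 3 rose (9.68%, against 14.7%). The median was -0.08, and under median scaling 5 fell and 0 rose. ID3, a BMP-induced inhibitor of helix-loop-helix factors, read 7.63, 7.49 and 7.83 in ARF-2, against 9.18, 9.32 and 9.33 in scramble. It fell by 1.63 ± 0.10 (adjusted p = 1.35e-06), ID1 fell by 0.53 ± 0.09, the inhibitory SMAD6 fell by 0.58 ± 0.12 and the activin antagonist follistatin (FST) fell by 0.66 ± 0.09. A second ID1 probe read -0.46 (adjusted p = 0.0675). Endothelin 1 (EDN1), a vasoactive peptide and YAP target, read 5.92, 6.07 and 6.44 in ARF-2, against 7.51, 7.74 and 7.62 in scramble, with no overlap (-1.48 ± 0.13; adjusted p = 1.52e-05). FJX1 fell by 0.97 ± 0.09, tissue factor (F3) fell by 0.76 ± 0.13 and thrombospondin 1 (THBS1) fell by 0.69 ± 0.09, but the YAP target CCN2 rose by 0.67 ± 0.12, a call lost under median scaling (adjusted p = 0.0766). The list of 27 such targets held 6 falls (22.2%) and 2 rises (7.41%), with a median of -0.13. Under median scaling it held 5 falls and 0 rises.

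Feedback regulators of MAP kinase signalling were mainly higher. These genes are switched on by ERK activity and hold it back. Of 26 members, including EGFR ligands, 13 rose and 2 fell (50% and 7.69%, against 14.7% and 14.1% over all genes; median 0.27). Under median scaling 4 rose and 2 fell. The phosphatase DUSP4 read 9.47, 9.53 and 9.43 in ARF-2, against 7.88, 8.08 and 7.91 in scramble. All ARF-2 arrays stood above scramble, by 1.52 ± 0.11 (adjusted p = 2.73e-06), while a dimmer DUSP4 probe read 0.57 (adjusted p = 0.0562). DUSP5, which acts on nuclear ERK, read 11.17, 11.16 and 11.20 in ARF-2, against 10.25, 10.10 and 10.00 in scramble (1.06 ± 0.10; adjusted p = 2.12e-05). LRIG1, which promotes degradation of EGFR family receptors, rose by 1.39 ± 0.11 and the Sprouty protein SPRY1 by 0.83 ± 0.09, while the receptor EPHA2 fell by 0.72 ± 0.09. EGFR itself read 0.14 ± 0.09 (adjusted p = 0.29). Among 28 immediate early and AP-1 genes, 12 rose and 4 fell (42.9% and 14.3%), with a median of 0.11. Under median scaling 6 rose and 3 fell. The risers included the nuclear receptor NR4A2 (1.08 ± 0.12), the repressor BHLHE40 (1.12 ± 0.09), KLF6 (0.80 ± 0.09) and the mRNA decay factor ZFP36 (0.80 ± 0.09), whereas its relative ZFP36L2 fell by 0.91 ± 0.12.

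**Figure D4:**
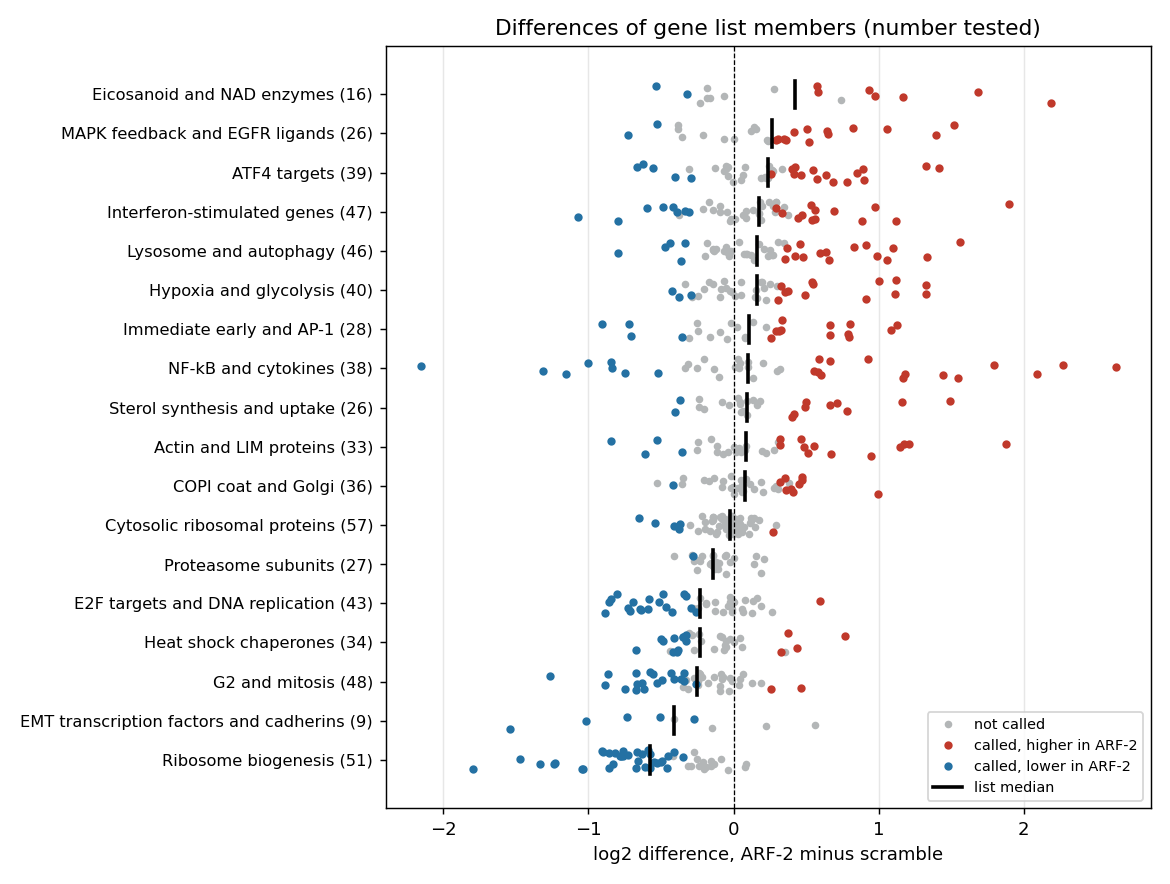
Log2 difference, ARF-2 minus scramble (x axis), of each tested member of 18 gene lists (rows, number tested in brackets). Grey points did not pass, red and blue points passed higher and lower in ARF-2, and black bars are list medians, which run from -0.58 for ribosome biogenesis at the bottom to 0.43 for eicosanoid and NAD enzymes at the top (-0.11 for that list with the strict detection filter).

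Targets of ATF4, a factor that answers amino acid shortage and ER stress, rose more often than they fell. Of 39 members, 15 rose and 5 fell (38.5% and 12.8%, against 14.7% and 14.1% over all genes; median 0.24). Under median scaling 6 rose and 4 fell. PHGDH, which commits glycolytic carbon to serine, read 10.36, 10.14 and 10.27 in ARF-2, against 8.85, 8.89 and 8.78 in scramble. It rose by 1.42 ± 0.10 (2.67-fold; adjusted p = 2.37e-06). DDIT4, an inhibitor of mTORC1, read 11.54, 11.52 and 11.53 in ARF-2, against 10.26, 10.22 and 10.15 in scramble, with ARF-2 arrays that were almost equal (1.32 ± 0.08; adjusted p = 1.06e-06). Asparagine synthetase (ASNS) rose by 0.89 ± 0.10, TXNIP by 0.78 ± 0.09 and the alanyl-tRNA synthetase AARS1 by 0.69 ± 0.08, the last call being lost under median scaling (adjusted p = 0.0763). Serine and one-carbon enzymes moved both ways, with 4 rises and 3 falls among 11 (36.4% and 27.3%), and 1 and 3 under median scaling. PHGDH and PSAT1 (0.42 ± 0.09) of serine synthesis rose, while MAT2A, which makes S-adenosylmethionine, fell by 0.61 ± 0.08, MTHFD1 fell by 0.58 ± 0.10 and thymidylate synthase (TYMS) fell by 0.42 ± 0.12. The call of PSAT1 did not hold under median scaling (adjusted p = 0.496), nor did that of TYMS without ARF-2 replicate 2 (adjusted p = 0.0675) or without scramble replicate 2 (adjusted p = 0.0778). Aminoacyl-tRNA synthetases counted 4 rises and 2 falls among 18 (22.2% and 11.1%), and 0 and 2 under median scaling. A composite ATF4 site, TGATGNAAT on either strand, was in 0 of the 14 promoter windows of ATF4 targets that rose. It was in 0.509% of the windows of all genes tested and in 1.02% of all windows. These letters are so rare that 0 of 14 cannot tell the risers from other genes, and nothing is drawn from it.

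ER and Golgi genes, the compartment in which ARF1 acts, showed mostly small differences. Of 36 COPI coat and Golgi genes, 9 rose and 1 fell (25% and 2.78%, against 14.7% and 14.1% over all genes; median 0.08). However, 1 rose and 2 fell under median scaling, with the median at -0.08. Leaving out each array gave 5 to 8 rises, the lowest without scramble replicate 2. KDELR3, which returns chaperones to the ER, read 8.46, 8.41 and 8.36 in ARF-2, against 7.54, 7.35 and 7.36 in scramble. It stood apart from the others at 1.00 ± 0.11 (adjusted p = 5.04e-05). The coat subunit COPA (0.47 ± 0.09), the receptor KDELR1 (0.40 ± 0.08) and the tether GOLGB1 (0.47 ± 0.10) rose on the quantile scale and lost their calls under median scaling (adjusted p = 0.349, 0.484 and 0.367). GORASP1, a Golgi stacking protein, fell by 0.42 ± 0.09. Of 22 COPII genes, 1 rose and 2 fell (4.55% and 9.09%), with a median of 0.08, and -0.09 under median scaling. TRAPPC3 fell by 0.70 ± 0.09. Among 27 ER chaperones and unfolded protein response genes, 7 rose and 2 fell (25.9% and 7.41%), with a median of 0.01. However, 1 rose and 2 fell under median scaling, with the median at -0.14. HSP90B1 rose by 0.86 ± 0.10, and HYOU1 fell by 1.04 ± 0.12. XBP1 and HSPA5 rose by 0.62 ± 0.09 and 0.51 ± 0.09, calls lost under median scaling (adjusted p = 0.133 and 0.324). In the list of 31 ARF GTPases and regulators, 5 rose and 3 fell (median 0.12). These shares, 16.1% and 9.68%, were near the 14.7% and 14.1% over all genes. Under median scaling 1 rose and 3 fell, with the median at -0.03. With a detection p below 0.01 required on all arrays, 11 rose and 3 fell (median 0.14), so the count of rises depended on the probe filter. Leaving out each array gave 3 to 5 rises and 1 to 3 falls. GIT2, which inactivates ARF proteins, rose by 0.71 ± 0.16, and CYTH2, which activates them, fell by 0.50 ± 0.10, while other probes of GIT2 (adjusted p = 0.0755) and CYTH2 (adjusted p = 0.277 and 0.327) did not pass.

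Autophagy and lipid genes held several of the wider rises. Of 46 lysosome and autophagy genes, 15 rose and 5 fell (32.6% and 10.9%, against 14.7% and 14.1% over all genes). The median was 0.16, and -0.02 under median scaling, with 7 rises and 3 falls. GABARAPL1, a ubiquitin-like protein of the autophagosome membrane, read 8.93, 9.03 and 9.11 in ARF-2, against 7.59, 7.42 and 7.38 in scramble. The groups were well apart, by 1.56 ± 0.10 (adjusted p = 1.26e-06). Its relative MAP1LC3A read 8.95, 8.96 and 8.98 in ARF-2, against 7.71, 7.64 and 7.53 in scramble, and rose by 1.33 ± 0.10 (adjusted p = 3.22e-06). The initiating kinase ULK1 rose by 1.06 ± 0.10 and the protease cathepsin L (CTSL) by 0.99 ± 0.12, and the receptor NBR1, undetected on all scramble arrays, was at least 1.80-fold higher (adjusted p = 4.87e-05). Of 26 sterol genes, 9 rose and 2 fell (34.6% and 7.69%; median 0.09). Under median scaling the median was -0.06, with 3 rises and 0 falls. ABCA1, which exports cholesterol, read 9.48, 9.49 and 9.42 in ARF-2, against 8.04, 8.09 and 7.77 in scramble, 2.82-fold higher (adjusted p = 3.31e-06). INSIG1, which holds back sterol synthesis, rose by 1.16 ± 0.10, and LXR-alpha (NR1H3), which drives ABCA1, by 0.78 ± 0.12. Of 33 fatty acid genes, 9 rose and 3 fell (27.3% and 9.09%), and 3 rose and 3 fell under median scaling. The rises were led by the desaturase SCD, at 10.97, 10.88 and 10.82 in ARF-2, against 9.54, 9.46 and 9.59 in scramble (1.36 ± 0.09; adjusted p = 1.63e-06), and PPARG (0.96 ± 0.09), while the elongase ELOVL1 fell by 0.78 ± 0.10.

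Among 40 hypoxia and glycolysis genes, 13 rose and 3 fell (32.5% and 7.5%, against 14.7% and 14.1% over all genes; median 0.16). Under median scaling there were 6 rises and 2 falls. The angiogenic factor VEGFA read 9.75, 9.97 and 9.84 in ARF-2, against 8.59, 8.55 and 8.44 in scramble. Every ARF-2 value lay well above every scramble value (1.32 ± 0.09; adjusted p = 1.83e-06). NDRG1, a stress-induced protein, rose by 1.12 ± 0.11, the glucose carrier SLC2A3 by 1.11 ± 0.09 and the hormone STC1 by 1.00 ± 0.09. The eicosanoid and NAD enzymes had the highest median of the lists with 10 or more tested genes, 0.43. Of 16 members, 7 rose and 2 fell (43.8% and 12.5%), but 9 lay above 0 and 7 below. With the strict filter, a detection p below 0.01 on all arrays, the median was -0.11, with 5 rises and 2 falls. NNMT, which methylates nicotinamide, read 6.89, 6.85 and 6.72 in ARF-2, against 4.60, 4.73 and 4.55 in scramble. It was undetected on all scramble arrays and at least 3.74-fold higher in ARF-2 cells (adjusted p = 1.34e-07). ALOX5AP, which presents arachidonate to 5-lipoxygenase, read 6.83, 6.92 and 7.09 in ARF-2, against 5.30, 5.11 and 5.36 in scramble (1.69 ± 0.10; adjusted p = 1.04e-06). Prostaglandin E synthase (PTGES) rose by 0.98 ± 0.09, AKR1C3, a reductase of prostaglandins and steroids, by 1.17 ± 0.11, and NAMPT, of NAD salvage, by 0.93 ± 0.10.

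Several of the largest differences belonged to no single pathway. MAGEB2, a cancer-testis antigen encoded on chromosome X, read 7.36, 7.07 and 7.20 in ARF-2, against 4.72, 4.93 and 4.74 in scramble. No scramble array detected it, and it was at least 4.90-fold higher in ARF-2 cells (adjusted p = 7.37e-07), while another X-linked cancer-testis gene, PAGE5, read 5.60, 5.21 and 5.10 in ARF-2, against 6.87, 6.82 and 7.11 in scramble, and fell by 1.63 ± 0.14 (adjusted p = 9.38e-06). Both have close relatives whose transcripts a probe might share. The zinc-finger gene ZNF467 read 7.00, 7.06 and 6.91 in ARF-2, against 4.85, 4.68 and 4.69 in scramble, undetected in scramble, at least 4.21-fold higher (adjusted p = 1.34e-07). The growth factor midkine (MDK) read 8.50, 8.64 and 8.56 in ARF-2, against 6.49, 6.63 and 6.66 in scramble. This probe rose by 1.97 ± 0.09 (adjusted p = 1.34e-07), whereas 2 others, each detected on 1 array of either group, read -0.15 and -0.10 (adjusted p = 0.625 and 0.802). NOX5, a calcium-activated NADPH oxidase, read 8.57, 8.56 and 8.72 in ARF-2, against 6.58, 6.84 and 6.30 in scramble (2.05 ± 0.13; adjusted p = 1.54e-06). ATP9A, a lipid flippase of endosomes, read 8.15, 8.50 and 8.37 in ARF-2, against 6.38, 6.13 and 6.61 in scramble (1.97 ± 0.13; adjusted p = 1.51e-06). In both genes every ARF-2 array was above every scramble array.

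Among the remaining large falls was UCA1, a long non-coding RNA first found in bladder cancer, at 5.54, 5.43 and 5.83 in ARF-2, against 7.91, 7.63 and 7.67 in scramble. The groups were far apart, with a difference of -2.13 ± 0.14 (4.39-fold lower; adjusted p = 1.72e-06). NCOA5, a coregulator of nuclear receptors, read 6.77, 6.56 and 6.85 in ARF-2, against 8.24, 8.29 and 8.38 in scramble (-1.58 ± 0.11; adjusted p = 2.25e-06). The torsin relative TOR4A fell by 1.34 ± 0.11, the forkhead gene FOXD4 fell by 1.38 ± 0.15 and SAMD1, a chromatin protein that binds unmethylated CpG islands, fell by 1.34 ± 0.17 (adjusted p = 8.48e-06, 5.11e-05 and 0.000179). PGBD2, derived from a piggyBac transposase, fell by 1.38 ± 0.17 and was detected on 1 of 3 ARF-2 arrays.

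Respiratory chain and proteasome genes had fewer calls than the 28.9% over all genes (14.7% higher and 14.1% lower). Of 52 respiratory chain subunits, 6 rose and 3 fell (11.5% and 5.77%; median 0.08). Under median scaling 0 rose and 1 fell, with the median at -0.07, and 2 to 4 rose when each of the 6 arrays was left out. COX7B2 was the widest at -1.29 ± 0.15. Proteasome subunits had 0 rises and 1 fall among 27 (median -0.14), the fall being PSMB5 (-0.28 ± 0.08; adjusted p = 0.0307, and 0.159 under median scaling). PSMB5 also missed the threshold without ARF-2 replicate 1 or 2 (adjusted p = 0.0911 and 0.0858) and without scramble replicate 1 or 3 (0.097 and 0.0923). In the other direction, 3 proteasome subunits fell under cyclic loess and 7 with the strict detection filter, with 0 rises in both. Of the 27 subunits, 22 lay below 0. The low count of proteasome calls thus depended on the processing. Of 34 heat shock chaperones, 4 rose and 11 fell (11.8% and 32.4%; median -0.23). The falls numbered 5, with 1 rise, under median scaling and 6 to 9 when each array was left out, the lowest without scramble replicate 3. HSPA1B fell by 0.67 ± 0.10 and HSPH1 fell by 0.41 ± 0.09, while the small chaperone HSPB1 rose by 0.44 ± 0.09, a call lost under median scaling (adjusted p = 0.415). HSPA1B is nearly identical to HSPA1A, so its probe cannot be given to 1 of them. Of 17 genes of the small RNA machinery, which siRNAs also use, 5 fell and 2 rose (29.4% and 11.8%), with a median of -0.23. Under median scaling 4 fell and 0 rose. DGCR8, of microRNA processing, fell by 0.76 ± 0.11 and the export receptor XPO5 fell by 0.59 ± 0.09. AGO2, the slicing Argonaute, rose by 0.46 ± 0.10, a call lost under median scaling (adjusted p = 0.407). Of 26 NRF2 and metallothionein genes, 5 rose and 2 fell (19.2% and 7.69%), and 2 and 2 under median scaling. Metallothionein MT1F, at 8.03, 7.98 and 7.97 in ARF-2, against 6.56, 6.51 and 6.57 in scramble, was the widest (1.45 ± 0.10, adjusted p = 1.7e-06). Its near-identical relatives may share the probe. Of 16 histone genes, 4 rose and 3 fell (25% and 18.8%), and 1 and 3 under median scaling. H2AJ rose by 0.79 ± 0.11 while H2AC18 fell by 1.14 ± 0.12. Of the remaining lists, growth factors related to midkine counted 2 rises and 3 falls among 18 (11.1% and 16.7%). Cancer-testis genes counted 2 rises and 3 falls among 12 (16.7% and 25%). Luminal markers counted 6 rises and 3 falls among 18 (33.3% and 16.7%), and 1 and 3 under median scaling. AGR2 fell by 1.11 ± 0.10 and SPDEF fell by 0.65 ± 0.09, while AGR2 did not pass on its other probe (-0.35, adjusted p = 0.0776). Leukocyte markers counted 1 rise and 1 fall among 8 tested (12.5% each). Endothelial, adipocyte and fibroblast markers counted 1 rise (25%) and 0 falls among 4, and basal markers 0 of either among 2.

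MicroRNA genes are represented by probes for their precursors, which do not report the mature strands. Of 67 tested, 2 rose and 1 fell, against 28.9% called over all genes. Many of the 67 probes read near the detection floors of the arrays (4.87 to 5.01), so the low count does not show that microRNA genes changed little. The 3 called genes were chosen after their values were seen. The mature sequences of the 3 genes from RefSeq (GRCh38.p14) are given to show that their seeds, bases 2 to 8 in capitals, all differ.
hsa-miR-21-5p: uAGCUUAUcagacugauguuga
hsa-miR-302c-3p: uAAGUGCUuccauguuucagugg
hsa-miR-302c-5p: uUUAACAUggggguaccugcug
hsa-miR-300: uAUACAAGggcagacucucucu
MIR21, whose mature product is abundant in many carcinomas, read 6.22, 6.50 and 6.65 in ARF-2, against 4.52, 4.95 and 4.55 in scramble. It was detected on all ARF-2 arrays and on 0 scramble arrays, and was at least 2.91-fold higher (adjusted p = 2.23e-05). MIR302C read 6.21, 6.59 and 6.25 in ARF-2, against 5.37, 5.45 and 5.75 in scramble, a difference of 0.83 ± 0.15 (adjusted p = 0.00161), and MIR300 read 5.25, 5.70 and 5.25 in ARF-2, against 5.81, 5.92 and 5.78 in scramble, a difference of -0.44 ± 0.13 (adjusted p = 0.0297).

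The ARF-2 arrays were then set directly against the other sets with the same ARF1 siRNA label. Against ARF-1, 9 of 12048 genes (0.0747%) passed, 7 higher (0.0581%) and 2 lower (0.0166%) in ARF-2, and 1982 of 22195 probes had an unadjusted p below 0.05. ARF-2 arrays correlated with ARF-1 arrays at 0.990 to 0.993 across probes, a description over the same probes. RFX3, a transcription factor of ciliated cells, read 6.98, 7.14 and 6.52 in ARF-2, 5.36, 5.29 and 5.51 in ARF-1 and 5.17, 4.57 and 5.10 in scramble. The ARF-2 arrays stood above all arrays of the other groups, by 1.49 ± 0.20 over ARF-1 (adjusted p = 0.0201) and by 1.93 ± 0.20 over scramble (adjusted p = 3.46e-05). Both other RFX3 probes, near background, read 0.10 and 0.43 against scramble (adjusted p = 0.738 and 0.279). The tubulin gene TUBB1 read 5.19, 4.78 and 4.90 in ARF-2, 6.71, 6.81 and 6.84 in ARF-1 and 4.49, 4.35 and 4.66 in scramble. Its high values were those of ARF-1, and the ARF-2 difference from ARF-1 was -1.83 ± 0.12 (adjusted p = 3.74e-05).

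The metastasis suppressor KISS1 read 6.57, 6.18 and 6.49 in ARF-2, 7.25, 7.49 and 7.35 in ARF-1 and 6.61, 6.95 and 6.76 in scramble, and was lower in ARF-2 than in ARF-1 by a difference of -0.95 ± 0.12 (adjusted p = 0.0201). The interferon-induced RNA-binding genes IFIT3 and IFIT1 were higher in ARF-2 than in ARF-1 by 0.77 ± 0.08 and 0.68 ± 0.10 (adjusted p = 0.00846 and 0.0464). The other probes of these genes did not pass that comparison (adjusted p = 0.675 for IFIT1, and 0.34 and 0.125 for IFIT3). Against scramble, these other probes read -0.66, -0.43 and -0.51 in ARF-1 (adjusted p = 0.0106, 0.0606 and 0.00301), and -0.40, 0.09 and 0.01 in ARF-2. On these probes ARF-1 thus lay below scramble in both genes. IL1B read 9.92, 9.98 and 9.89 in ARF-2 and 9.30, 9.26 and 9.25 in ARF-1, a difference of 0.66 ± 0.08 (adjusted p = 0.0125) on top of the rise over scramble. The glycosyltransferase GALNT2 (0.62 ± 0.09), the secretory GTPase RAB27B (0.56 ± 0.09) and the antigen-presenting HLA-DPA1 (0.54 ± 0.08) completed the 9, each with an adjusted p of 0.0464. By probe, 14 of 22195 (0.0631%) passed with all arrays, but 1 passed without ARF-2 replicate 1, ARF-2 replicate 2, ARF-1 replicate 1 or ARF-1 replicate 2, 3 without ARF-1 replicate 3 and 8 without ARF-2 replicate 3. Under median scaling 4 probes passed, 1 higher and 3 lower in ARF-2, against 10 higher and 4 lower on the quantile scale. Which of the 9 genes kept their call was not followed. A second MAGEB2 probe, not the one that stands for the gene, was also among the 14 probes. It was higher in ARF-2 than in ARF-1 by 0.70 (adjusted p = 0.0464). A gene that did not pass against ARF-1 is not thereby shown to be equal in both sets.

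Against ARF-4 the differences were many. Of 12048 genes, 2825 (23.4%) passed, 1480 higher (12.3%) and 1345 lower (11.2%) in ARF-2, and 185 (1.54%) did so at 2-fold or more. By probe, 4277 of 22195 (19.3%) passed. Cystatin CST1, a secreted cysteine protease inhibitor, read 10.84, 10.86 and 10.89 in ARF-2, 8.25, 8.22 and 8.23 in ARF-4, against 11.34, 11.30 and 11.30 in scramble. Both sets lay below scramble, and ARF-4 far more so, which put ARF-2 above ARF-4 by 2.63 ± 0.08 (adjusted p = 6.43e-09). ABCA1 read 9.48, 9.49 and 9.42 in ARF-2, 7.12, 6.97 and 6.82 in ARF-4, against 8.04, 8.09 and 7.77 in scramble. Here the sets lay on opposite sides of scramble, with a difference between them of 2.49 ± 0.11 (adjusted p = 1.59e-07). NDRG1 (2.24 ± 0.11), LAIR2 (2.12 ± 0.11) and CCNG2 (1.87 ± 0.13) likewise stood above scramble in ARF-2 and below it in ARF-4. Against scramble, NDRG1 read 1.12 in ARF-2, with -1.11 in ARF-4, LAIR2 1.68 and -0.43, and CCNG2 1.34 and -0.53. Of 2 other CCNG2 probes, 1 read -0.61 in ARF-4 against scramble (adjusted p = 0.00802) and 1 read 0.27 (adjusted p = 0.477). CST4 (2.09 ± 0.11), RFX3 (2.08 ± 0.20) and KLF9 (2.07 ± 0.10) were also among the 8 widest, but both other RFX3 probes did not pass (adjusted p = 0.863 and 0.943).

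On the lower side, RRS1 read 7.18, 7.22 and 7.23 in ARF-2, with 8.71, 8.86 and 9.00 in ARF-4, a difference of -1.65 ± 0.09 (adjusted p = 7.01e-07). ARF-4 cells were thus near scramble for this gene. NCOA5 (-1.49 ± 0.11), TRMT61A (-1.33 ± 0.14), the E2F-driven TCF19 (-1.33 ± 0.10), CDC25A (-1.32 ± 0.10) and the ubiquitin ligase MARCHF4 (-1.35 ± 0.11) showed the same order, low in ARF-2 and close to scramble in ARF-4. A second TCF19 probe did not pass against ARF-4 (adjusted p = 0.3). RPPH1 read -0.75 in ARF-2, with 0.71 in ARF-4, against scramble, a difference between the sets of -1.46 ± 0.10 (adjusted p = 4.09e-06), and UCA1, lower than scramble in both, differed by -1.36 ± 0.14 (adjusted p = 5.8e-05). By list, 33 of 51 ribosome biogenesis genes were lower in ARF-2 than in ARF-4 and 0 higher, against 11.2% lower among all genes. Between ARF-2 and ARF-1, 0 of the 51 passed as lower and 0 as higher (median -0.04). The list median against scramble was -0.58 in ARF-2, -0.54 in ARF-1 and -0.05 in ARF-4. The comparisons of each set with scramble share the 3 scramble arrays, so values are given side by side and no agreement between them is counted.

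**Figure D5:**
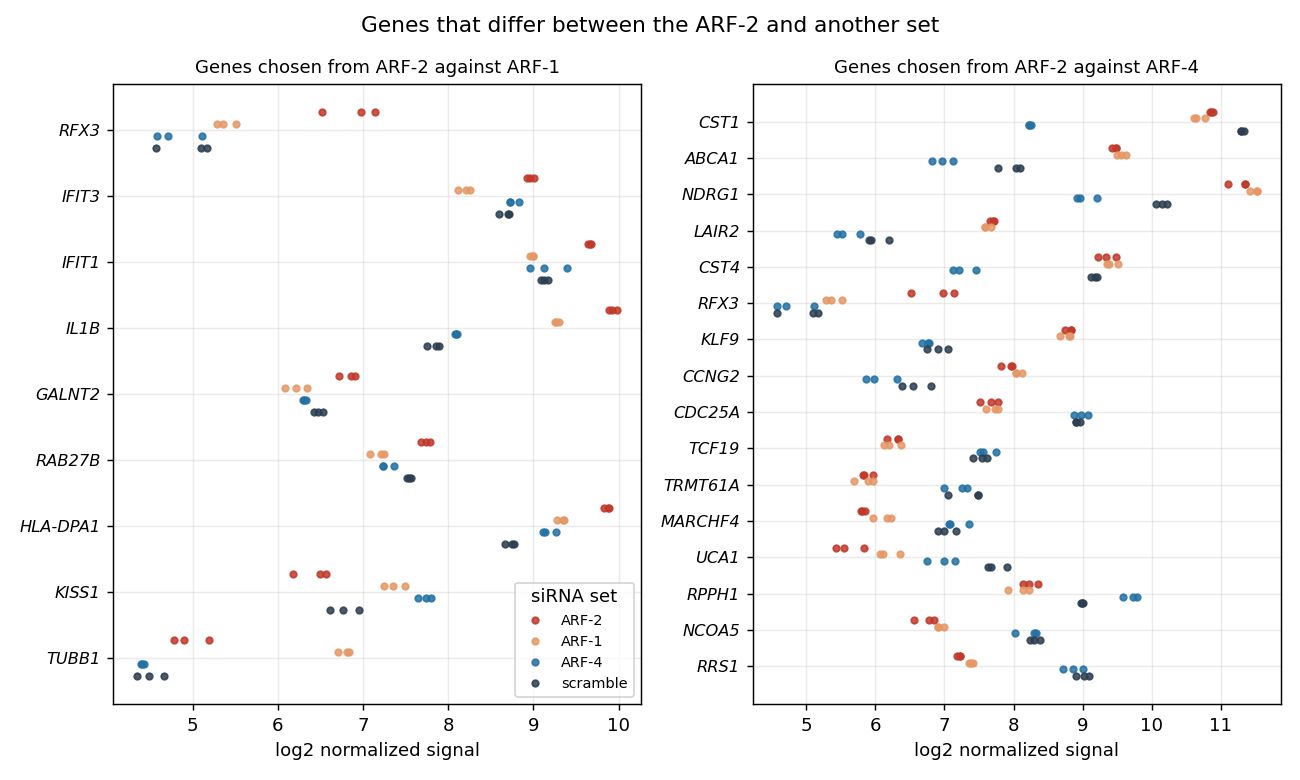
Log2 normalized signal (x axis) on every array of the ARF-2, ARF-1, ARF-4 and scramble groups for the 9 genes that differ between ARF-2 and ARF-1 (left) and the 8 widest each way between ARF-2 and ARF-4 (right). Points are arrays, 3 a group. On the left, TUBB1 stands high in ARF-1 and RFX3 in ARF-2, and on the right most ARF-1 points lie beside the ARF-2 points.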

How the data were processed

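Total RNA of 12 samples was labelled with biotin and hybridised to 1-colour Illumina beadchips, per the labels' protocols. The deposited tables hold the summarised probe intensity and a detection p-value for each probe, from BeadStudio 2.3.47, which the submitters' processing notes name. A value table deposited by the authors, on a linear intensity scale, differed by at most 6.06e-07 (log2) from the quantile-normalized signals and served as an alternative. Negative-control intensities were inferred from the deposited detection p-values, and limma 3.58.1 (R 4.3.3) applied its neqc background correction with an offset of 16, quantile normalization and the log2 transform. Of 47311 probes with values, 22195 with a detection p below 0.05 on at least 3 of 12 arrays were tested. Of 30108 probes with exactly 1 gene symbol in the platform annotation, 16192 were kept, and a gene was read from its probe with the highest mean, giving 12048 genes, 3249 of them with more than 1 kept probe.

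A linear model with 4 group means over all 12 arrays gave each contrast with moderated limma tests and Benjamini-Hochberg adjustment over all 22195 probes, at a threshold of 0.05. All groups entered so as to share the estimate of the spread. Where no array of a group detected a probe, a bound against the detection limit was used. Arrays were grouped by source name. Genes are named by rule: 13 genes of the ARF and EMT families, the 15 largest rises and 15 largest falls whose arrays do not overlap, the 8 largest each way against ARF-1 and ARF-4, and up to 5 members with the smallest adjusted p in each list. Members and lists were chosen with earlier results of these data known. Samples with the same replicate number did not deviate together. The scripts were tested on simulated data. The number of arrays limits the precision. Alternatives in background correction, normalization, probe filter, samples fitted and variance prior are given in the closing section.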

Additional observations from a re-analysis of the deposited data

Results flagged for a closer look

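Results flagged here differed between ARF-2 and another set carrying the same siRNA label, by a direct limma test of that difference (adjusted p below 0.05), or lay outside the named genes. Groups of 3 arrays were not tested for outlying arrays. Between ARF-2 and ARF-1, 14 probes differed, on these 9 genes among others: lower in ARF-2 were TUBB1 (-1.83) and KISS1 (-0.95), and higher were HLA-DPA1 (0.54), RAB27B (0.56), GALNT2 (0.62), IL1B (0.66), IFIT1 (0.68), IFIT3 (0.77) and RFX3 (1.49). Between ARF-2 and ARF-4, 4277 probes differed. The widest on the lower side in ARF-2 were RRS1 (-1.65), NCOA5 (-1.49), RPPH1 (-1.46), UCA1 (-1.36), MARCHF4 (-1.35), TRMT61A (-1.33), TCF19 (-1.33) and CDC25A (-1.32). On the higher side were CST1 (2.63), ABCA1 (2.49), NDRG1 (2.24), LAIR2 (2.12), CST4 (2.09), RFX3 (2.08), KLF9 (2.07) and CCNG2 (1.87).

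Outside the named genes, 964 of 6003 tested probes without exactly 1 gene symbol passed in ARF-2 against scramble, 487 higher and 477 lower. That is a lower share than the 24.6% over all 22195 probes tested. They are not described further, since the annotation gives them no single gene.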

How the results depend on the processing

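The difference of the ARF1 probe, 0.21 with an adjusted p of 0.0758, passed the threshold with no background correction (0.21, adjusted p = 0.0176), with an offset of 50 (0.213, 0.0494), in the authors' value table (0.21, 0.0176), with the strict detection filter (0.215, 0.0322) and with a trended and robust variance prior (0.215, 0.0188), always as a higher value in ARF-2. It was 0.052 under median scaling (adjusted p = 0.91) and 0.045 as the mean of all kept ARF1 probes (0.72), and read 0.188 to 0.249 when each of the 6 arrays was left out. Median scaling left 1953 genes called against scramble instead of 3477, 3180 probes instead of 5452, and 1655 probes instead of 4277 against ARF-4. Probes at 1.5-fold or more numbered 662 without background correction and in the value table and 1177 with an offset of 50, against 2300. The 14 probes called against ARF-1 became 109 without background correction and in the value table, 57 with an offset of 50, 48 with the strict filter, 72 with the trended prior, 9 under cyclic loess, 4 under median scaling, 3 with a replicate block, and 1 where only the 6 arrays compared were fitted or, an alternative chosen after seeing the data, were also normalized and filtered alone. The causes were not tested. Leaving out each array gave 1 to 8 probes against ARF-1, 3353 to 3519 against ARF-4, 4215 to 4508 against scramble, 2276 to 2375 at 1.5-fold, and 2720 to 2878 genes. Replicate numbers did not pair the samples (correlations of deviations between ARF-2 and scramble arrays of -0.006 to 0.005), and with a replicate block 3361 genes and 5288 probes were called against scramble and 4057 probes against ARF-4. Of 214 named genes that passed against scramble, 155 passed under every alternative run, 59 lost the call under at least 1, and 0 changed direction. Fold changes of dim probes are compressed by the offset, and signal near background limits SNAI1, TWIST1, CDH1 and CDH2, which were not tested.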
